A study of Homo sapiens with 35 samples.

Results

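Distal p52 sites without RNA Pol II are regions of the genome at which p52 was recovered in TWEAK-treated U-87 MG cells, away from gene starts and with no RNA polymerase II (Pol II) peak on them. They were chosen by measured values. Overlapping p52 peaks of the 2 TWEAK-treated control libraries were merged on chromosomes 1 to 22 and X, and a site was kept when both libraries had a peak in it. Its centre had to lie outside the stretch from 1000 bp upstream to 100 bp downstream of every transcript start in GENCODE, and it had to overlap no peak in either Pol II library of the same condition. This gave 1808 members, 62.1% of the 2910 p52 sites with a peak in both libraries. The other 1102 were 491 distal sites with Pol II (16.9%) and 611 promoter sites (21.0%). Of the 491 sites, 290 had a Pol II peak in both TWEAK-treated libraries and 201 in 1 of them. A peak in either p52 library was found at 12172 merged sites in all.

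The cells were of U-87 MG, a long-established line from a human glioblastoma, and TWEAK is a secreted ligand of the TNF family. The data comprise 8 p52, 4 ETS1 and 8 Pol II ChIP-seq peak lists and 12 RNA-seq libraries. All cells were starved for 8 h. Control cells were left untreated or received 10 ng/ml TWEAK for 48 h, and both knockdown (KD) lines were measured with TWEAK only, so no untreated KD cells enter a comparison. The ETS1 KD and NFKB2 KD cells were made with a lentiviral Cas9 vector, and the files hold RNA and peaks but no protein level. The p52 lists of ETS1 KD cells came from guide 1 and guide 2, with 2 libraries each, and all other ChIP groups also had 2 libraries. The labels do not give the guide of the KD Pol II and RNA libraries. The RNA groups (untreated control, TWEAK control, *ETS1* KD with TWEAK and *NFKB2* KD with TWEAK) had 3 libraries each. The RNA-seq replicates were biological by the study's methods. For the ChIP libraries the sources used here do not say whether replicates came from separate cultures, so tests over them measure the spread between these libraries, which may be technical.

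In the non-canonical NF-κB pathway, a receptor of the TNF family causes the precursor p100, the product of *NFKB2*, to be processed to p52, which enters the nucleus with a partner such as RelB and binds short DNA elements called κB sites. ETS1 is a transcription factor that binds elements with a GGAA core. Pol II transcribes protein-coding genes and is found at promoters and at many active enhancers, and distal sites of a transcription factor may lie far from the genes near them in sequence.

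The members with the strongest p52 peaks show what most of the sites have in common. The following 5 are among the 10 with the best mean rank in both TWEAK-treated libraries and are given as 200 bp around the strongest summit, on the plus strand of hg38, with matches to the κB consensus and to the AP-1 consensus TGANTCA in capitals. They lie at chr5:138461393-138461592 (3969 bp upstream of *EGR1*, an immediate early transcription factor), chr15:80776483-80776682 (2784 bp upstream of *CEMIP*, which takes part in hyaluronan breakdown), chr17:9389164-9389363 (an intron of *STX8*, a SNARE protein of endosomes), chr5:76831227-76831426 (an intron of *F2RL1*, a receptor activated by proteases) and chr18:38940874-38941073 (intergenic, 1375084 bp from *CELF4*, an RNA-binding protein).
EGR1: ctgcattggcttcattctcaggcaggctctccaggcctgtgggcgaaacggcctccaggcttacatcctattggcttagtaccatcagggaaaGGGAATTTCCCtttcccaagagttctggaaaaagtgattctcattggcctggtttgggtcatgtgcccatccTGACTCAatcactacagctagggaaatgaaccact
CEMIP: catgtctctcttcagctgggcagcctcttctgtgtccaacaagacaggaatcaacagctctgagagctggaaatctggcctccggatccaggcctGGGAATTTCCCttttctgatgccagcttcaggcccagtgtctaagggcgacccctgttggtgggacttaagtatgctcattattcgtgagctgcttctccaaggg
STX8: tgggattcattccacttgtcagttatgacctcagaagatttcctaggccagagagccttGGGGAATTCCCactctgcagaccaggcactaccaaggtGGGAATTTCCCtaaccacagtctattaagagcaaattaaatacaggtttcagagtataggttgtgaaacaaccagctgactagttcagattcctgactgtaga
F2RL1: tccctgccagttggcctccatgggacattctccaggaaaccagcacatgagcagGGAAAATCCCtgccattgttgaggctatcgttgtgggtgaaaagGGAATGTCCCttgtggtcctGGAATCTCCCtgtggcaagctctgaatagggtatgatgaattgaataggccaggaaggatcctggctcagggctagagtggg
CELF4: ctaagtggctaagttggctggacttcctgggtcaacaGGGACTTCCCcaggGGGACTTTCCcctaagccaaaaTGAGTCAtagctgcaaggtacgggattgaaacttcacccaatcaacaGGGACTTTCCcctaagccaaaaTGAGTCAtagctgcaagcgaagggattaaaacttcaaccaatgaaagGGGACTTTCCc
The summits of the *EGR1*, *CEMIP* and *STX8* sites fall on or next to the same word, GGGAATTTCCC, in which a GGG and a CCC face each other across 5 bases and which holds a κB match on each strand. The *F2RL1* site has 3 κB matches, and the *CELF4* site repeats a unit of κB and AP-1 matches, with 4 and 2 of them in the window. All 10 of the strongest members had a p52 peak in all 4 *ETS1* KD lists, none in an untreated p52 list and none in an ETS1 list.

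Sites at named genes are shown at 100 bp, because the RNA of these genes is described further on. They are chr9:120928469-120928568 (in an intron of *TRAF1*, 695 bp downstream of its start), chr4:73722165-73722264 and chr1:7897278-7897377 (both intergenic, 18311 bp upstream of *CXCL8* and 37912 bp downstream of the start of *TNFRSF9*), chr9:98993738-98993837 (an intron of *COL15A1*) and chr21:38505786-38505885 (an intron of *ERG*). All 5 summits lie on a GGG and a CCC with 5 bases between them, within which the κB match is in capitals. At *TRAF1* the letters read the same on both strands, at *COL15A1* they are the word of the *EGR1* site, and at *TNFRSF9* and *CXCL8* the κB match is on the other strand.
TRAF1: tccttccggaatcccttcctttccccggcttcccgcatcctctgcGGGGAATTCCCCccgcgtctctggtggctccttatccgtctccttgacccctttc
CXCL8: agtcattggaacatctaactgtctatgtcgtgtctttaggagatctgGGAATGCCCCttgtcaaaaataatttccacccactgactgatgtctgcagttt
TNFRSF9: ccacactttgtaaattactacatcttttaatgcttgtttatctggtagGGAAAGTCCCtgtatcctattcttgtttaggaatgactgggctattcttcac
COL15A1: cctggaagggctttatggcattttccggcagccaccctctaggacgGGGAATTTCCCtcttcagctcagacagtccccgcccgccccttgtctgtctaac
ERG: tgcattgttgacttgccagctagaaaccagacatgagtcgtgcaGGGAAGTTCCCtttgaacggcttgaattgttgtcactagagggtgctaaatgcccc

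The members were short regions, mostly in introns and between genes. Their median width was 414 bp (204 to 4949). By GENCODE, 993 (54.9%, exact 95% interval 52.6 to 57.2) lay in introns, 726 (40.2%) between genes and 89 (4.92%) in exons. All intervals of shares cover counting error only. The median distance from the site to the nearest start of a protein-coding gene was 27450 bp, against 11880 bp for distal sites with Pol II, and 504 members (27.9%) were within 10 kb of one while 1373 (75.9%) were within 100 kb. The nearest Pol II peak of the TWEAK-treated libraries was a median of 33470 bp away, and 128 members (7.08%) had one within 1 kb without touching it. Members were spread singly, since only 58 (3.21%) had another member within 10 kb and 403 (22.3%) within 100 kb. Chromosome 21 held the most members per Mb (1.09), chromosome X the fewest (0.128), and the mean was 0.597. Of the 51 members on chromosome 21, 18 were nearest to *TPTE*, in a stretch described further on. Chromosome 19 stood out for the small share of its p52 sites that were members (29.1%).

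The values that chose the members are given as a description. In TWEAK replicate 1, the median fold enrichment at the summit over the background was 8.22 (1.25 to 86.9), and in replicate 2 it was 17.2 (1.11 to 169). The strongest member, upstream of *EGR1*, ranked 6 in replicate 1 and 2 in replicate 2. Distal sites with Pol II (medians 7.66 and 16.5) and promoter sites (8.21 and 18.1) had similar medians. The order of the members was much the same in both lists (Spearman's rho 0.888 over 1808 sites, which were chosen for a peak in both and share the antibody). At the threshold, the weakest member had a −log10 q of 1.03 in replicate 1 and 1.12 in replicate 2, where the weakest peaks of the whole lists had 1.03 and 1.02. The members nearest to a start were 1023 bp upstream and 110 bp downstream of one, the promoter sites farthest from a start 994 bp upstream and 100 bp downstream, and the smallest gap between a member and a Pol II peak was 3 bp.

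The TWEAK p52 lists held 3579 and 11761 peaks, the untreated p52 lists 714 and 452, and the *ETS1* KD p52 lists 1387 and 3897 for guide 1 and 4252 and 3938 for guide 2. The 4 ETS1 lists held 2066 to 4372 peaks and the 8 Pol II lists 11175 to 44672. The lists give no read counts, so the depth is unknown and a missing peak is not a measured absence of p52. RNA libraries had 28384201 to 40192606 counts. *NFKB2* RNA was at 49.6 to 66.6 CPM (counts scaled to a common library size) untreated, 235 to 346 with TWEAK and 75.7 to 105 in *NFKB2* KD, and *ETS1* RNA was at 41.3 to 45.1, 71.9 to 87.6 and, in *ETS1* KD, 28.2 to 37.8. Both targets were lower in every library of their KD than in every TWEAK control library. Of the markers of glioma cells, *VIM*, *CD44*, *NES* and *FN1* were at 76.6 CPM or more in every library, *OLIG2* was at 1.73 or less, and *GFAP*, *S100B* and *SOX2* did not pass the filter on low counts. Markers of immune, endothelial, epithelial and neuronal cells and of oligodendrocytes were at 3.04 CPM or less or did not pass it.

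The κB consensus was found in most members, and close to the summit. Within 200 bp around the strongest summit, 1424 of 1808 members (78.8%, 76.8 to 80.6) had a κB match on either strand. The share was 58.9% (54.4 to 63.3) at distal sites with Pol II, 74.6% (71.0 to 78.0) at promoter sites, and 3.04% in 3616 windows of the same length 1000 bp to either side of the members' summits. The intervals of the members and of the distal sites with Pol II did not overlap. At ETS1 sites without p52 the share was 9.09% of 1452, and at distal Pol II sites without p52 4.86% of 6363. The κB match lay within 25 bp of the summit at 1309 members (72.4%), with a median distance of 3 bp.

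**Figure D1:**
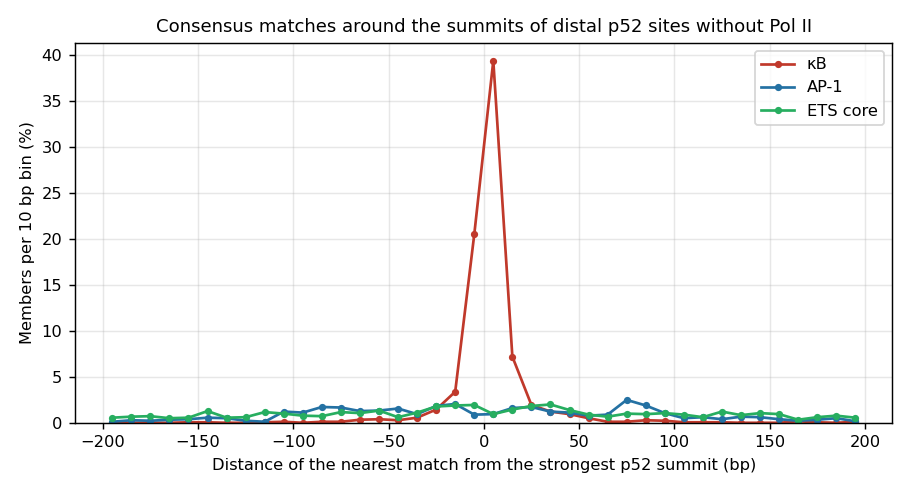
Share of the 1808 members (vertical axis, percent per 10 bp bin) by the distance in bp of the nearest κB, AP-1 or ETS core match from the strongest p52 summit (horizontal axis). The κB matches pile up at the summit, with a median distance of 3 bp, whereas AP-1 and ETS core matches spread over the window, with medians of 70.5 and 74 bp.

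The excess of κB at the members over distal sites with Pol II was present at each strength of peak. All 2299 distal sites were put into 3 tiers by their mean rank in the TWEAK lists. In the strongest tier, κB was found at 85.9% of 604 members and 77.9% of 163 sites with Pol II. In the middle tier, it was found at 78.7% of 625 and 62.4% of 141. In the weakest tier, the shares were 71.3% of 579 and 39.6% of 187, so the distance between the groups was widest there. Without the sites that also had a p52 peak in an untreated list, the shares over all tiers were 81.0% and 64.9%. A looser form of the consensus gave 79.0% and 59.9%.

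Of the members with a κB match, 425 had 1, 792 had 2 and 207 had 3 or more. The word found at most of them, which reads the same on both strands, was GGGAATTCCC (253 of 1424, 17.8%), followed by GGGATTTCCC (249), GGGGAATTCC (249) and GGGGATTTCC (215), where overlapping words were each counted. GGGAATTCCC made up 4.50% of the sites with κB among distal sites with Pol II and 8.33% among promoter sites. The word GGGACTTTCC, a κB site long known from enhancers, had the opposite order, with 5.83%, 9.34% and 8.99% of the sites with κB among members, distal sites with Pol II and promoter sites. In all, 80 of the 100 possible words were seen.

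The pattern GGGNNNNNCCC was searched after these sequences had been seen, so its share is a description. It was found at 1556 members (86.1%, 84.4 to 87.6), more than had a κB match, and at 65.4% of distal sites with Pol II, 83.6% of promoter sites and 3.96% of the windows 1000 bp away. With 4 bases between the triplets the share of the members was 63.4%, with 6 bases 37.1%, with 3 bases 13.7% and with 2 bases 5.31%, where windows 1000 bp away had 3.29% and 3.62% for 4 and 6 bases. These patterns can overlap each other and the κB match, and 1615 members (89.3%, 87.8 to 90.7) had at least 1 of κB and the patterns with 4 or 5 bases, leaving 193 with none. The 3 words of the pattern with 5 bases found at most members were GGGGAATTCCC (239, 13.2%), GGGGATTTCCC (213, 11.8%) and GGGAATTTCCC (154, 8.52%), each counted with its other strand. In distal sites with Pol II they were found at 2.65%, 2.04% and 2.65%, and each in 1 of 3616 windows 1000 bp away.

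Among the best 10 and the best 100 members by mean rank, GGGAATTTCCC was more frequent than GGGGAATTCCC and GGGGATTTCCC. In the strongest tier GGGGAATTCCC was the most frequent of them. GGGAATTTCCC was present at 7 of the 10 members with the best mean rank and at 31 of the best 100. It was present at 14.1% of the strongest, 7.20% of the middle and 4.15% of the weakest tier. Members with it had median fold enrichments of 12.1 and 24.4 in the TWEAK replicates, against 8.05 and 16.9 for the others. For GGGGAATTCCC the tiers had 16.6%, 13.9% and 8.98%. For GGGGATTTCCC they had 12.9%, 10.4% and 12.1%, with no order from strong to weak. Rank chose the members as well, so these are descriptions of the words among members and no test.

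**Figure D2:**
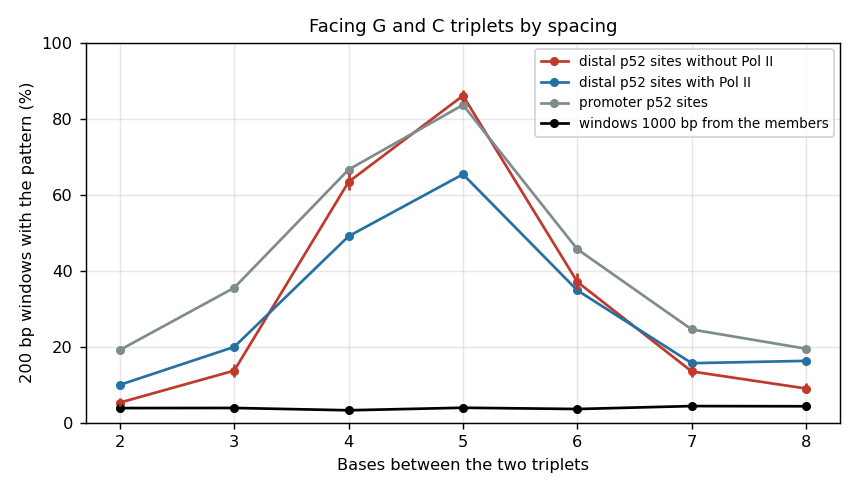
Share of 200 bp windows (vertical axis, percent) with a GGG followed by a CCC at each number of bases between them (horizontal axis), for the 1808 members, 491 distal sites with Pol II, 611 promoter sites and 3616 windows 1000 bp from the members. Bars on the members are exact 95% intervals. At 5 bases the members reach 86.1% and the windows 1000 bp away 3.96%.

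Elements of other factors were less frequent. AP-1, the dimer of Fos and Jun proteins, had its consensus TGANTCA at 498 members (27.5%, 25.5 to 29.7), at 26.9% of distal sites with Pol II, at 11.5% of promoter sites and at 5.89% of the windows 1000 bp away. Only 130 of these matches lay within 25 bp of the summit. κB and AP-1 were found together at 373 members (20.6%), κB alone at 1051 (58.1%), AP-1 alone at 125 (6.91%) and neither at 259 (14.3%). AP-1 was found at 26.2% of the members with κB and 32.6% of those without. The ETS core AGGAAG was found at 24.1% of the members and 20.6% of the windows 1000 bp away, and CCGGAAG, a longer form that ETS1 binds well, at 1.22% and 0.857%. For comparison, CCGGAAG was found at 9.64% of ETS1 sites without p52.

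Of the remaining elements, the GC box set the members apart mainly from promoters. The GC box GGGCGG, bound by Sp proteins, was found at 7.52% of the members, 15.3% of distal sites with Pol II and 42.9% of promoter sites. The median GC content of the windows was 48%, 52% and 62% in the same order, and 43% in the windows 1000 bp away. GGAATG (TEAD) was found at 14.0% of the members and 11.9% of the windows 1000 bp away, TGTGGT (RUNX) at 12.1% and 13.4%, and TTGCNNAA (C/EBP) at 9.35% and 10.1%. The CTCF consensus was found at 22 members (1.22%) and 0.0553% of the windows 1000 bp away. At distal sites with Pol II and at promoter sites, the shares were 18.1% and 10.8% for TEAD and 15.7% and 6.71% for RUNX. They were 5.70% and 5.07% for C/EBP and 0.407% and 0.491% for CTCF. The full NFI palindrome was found at 0 of 1808 members, which allows a share of up to 0.166% by a limit of 3 counts, and at 0 of 3616 windows 1000 bp away. A consensus match is a run of letters and no measured binding of the factor.

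Few members had a p52 peak before TWEAK. In the untreated libraries, 46 members (2.54%, 1.87 to 3.38) had a peak in replicate 1 and 40 (2.21%) in replicate 2, 50 (2.77%) in at least 1 and 36 in both. Distal sites with Pol II had 9.37% and 8.96%, and promoter sites 1.47% and 0.982%. The untreated lists were short, so these shares are limited by the list lengths as well.

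The 50 members with an untreated p52 peak differed from the rest in sequence and in their other peaks. None of the 50 had a κB match, which by the limit of 3 counts allows a share of up to 6%, against 1424 of 1758 (81.0%) of the others, and 1 of 50 had GGGNNNNNCCC. An ETS1 peak was found at 47 of the 50, against 1.93% of the others, and a Pol II peak in a condition other than control TWEAK at 28, against 5.80%. Their median fold enrichments under TWEAK were 2.67 and 2.17, against 8.46 and 17.4, and the median GC content was 39%. Of the 50, 15 were nearest to *SRGAP2C*, 5 to *H3-7* and 4 to *WSB1*, each at least 408467 bp away. A pair of these sites, chosen after their values were seen, is shown as a contrast to the strongest members, chr1:143214722-143214821 (intergenic, with folds of only 1.86 and 1.58 and all 4 ETS1 lists) and chr11:66421758-66421857 (an intron of *NPAS4*, a transcription factor gene of neurons).
H3-7: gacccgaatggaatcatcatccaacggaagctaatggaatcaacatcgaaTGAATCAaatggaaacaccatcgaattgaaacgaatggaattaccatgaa
NPAS4: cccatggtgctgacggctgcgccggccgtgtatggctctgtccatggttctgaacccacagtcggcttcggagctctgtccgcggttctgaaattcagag
The *H3-7* window repeats short units such as atggaatca and has 1 AP-1 match in capitals. The *NPAS4* site had folds of 22.2 and 39.3 under TWEAK, far above the median of the 50, with a p52 peak in both untreated lists and in all 4 *ETS1* KD lists, and no κB match.

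Some members gathered in long stretches without protein-coding genes. The gene nearest to most members was *SRGAP2C* with 22, at chr1:121767525-125180647, of which 21 had an ETS1 peak, 15 an untreated p52 peak and 0 a κB match. *TPTE* was nearest to 18 members on chromosome 21, and these were of another kind, with κB at 16 and an untreated p52 peak at 2. *H3-7* (5) and *WSB1* (4) followed the first kind, with untreated p52 at 5 and 4, an ETS1 peak at 5 and 4, and κB at 0 and 0. *TUBA3C* (7) was mixed, with untreated p52 at 2, an ETS1 peak at 3 and κB at 1. Median folds in the TWEAK replicates were low at *SRGAP2C* (2.92 and 2.44), *H3-7* (1.808 and 1.435), *WSB1* (1.95 and 1.77) and *TUBA3C* (3.93 and 3.03). At *TPTE* they were 7.547 and 15.75. Without the 56 members nearest to these 5 genes, 1752 remained, of which 22 (1.26%) had an untreated p52 peak, 46 (2.63%) an ETS1 peak and 80.3% a κB match. The 5 genes were singled out after their values were seen. *DACH1*, a transcription factor gene, was also nearest to 5 members, all with κB and none with an ETS1 or untreated p52 peak. The RNA of *SRGAP2C*, *TUBA3C*, *DACH1* and *H3-7* did not pass the test of TWEAK (log2 fold changes of 0.13, 0.44, −0.06 and 0.58), and *TPTE* was under the filter on low counts.

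ETS1 peaks were rare at the members. In the untreated ETS1 libraries, 70 members (3.87%) and 52 (2.88%) had one, and in the TWEAK-treated libraries 54 (2.99%) and 52 (2.88%). Distal sites with Pol II had 13.8%, 11.4%, 14.7% and 12.6% in the same lists, and the members were lower in each of the 4. The mean difference was −9.98 percentage points (−11.68 to −8.53). A two-sided exact sign-flip test over the 4 lists gave the smallest p that 4 lists allow, which is above 0.05, so the design cannot pass that threshold. Sites with an untreated p52 peak, nearly all of which had ETS1, are part of this difference. Without them, an ETS1 peak in any list was found at 1.93% of the members and 6.79% of distal sites with Pol II. Of all members, 81 had an ETS1 peak in any list (4.48%), in all 4 at 36 and in both TWEAK lists at 43. The 81 members had κB at 15 (18.5%), an untreated p52 peak at 47, other Pol II peaks at 37 and median folds of 3.65 and 2.69.

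Pol II peaks of the other conditions were also rare. The lists of untreated control cells had a peak at 39 members (2.16%) and 55 (3.04%), those of *ETS1* KD at 26 (1.44%) and 33 (1.83%) and those of *NFKB2* KD at 42 (2.32%) and 30 (1.66%). Distal sites with Pol II had between 29.1% and 63.5% in the same lists. Of the members, 130 (7.19%) had a peak in at least 1 of the 6 lists and 1678 (92.8%) in none. Absence under TWEAK chose the members, and the 6 lists come from other cells than the 2 that were used.

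**Figure D3:**
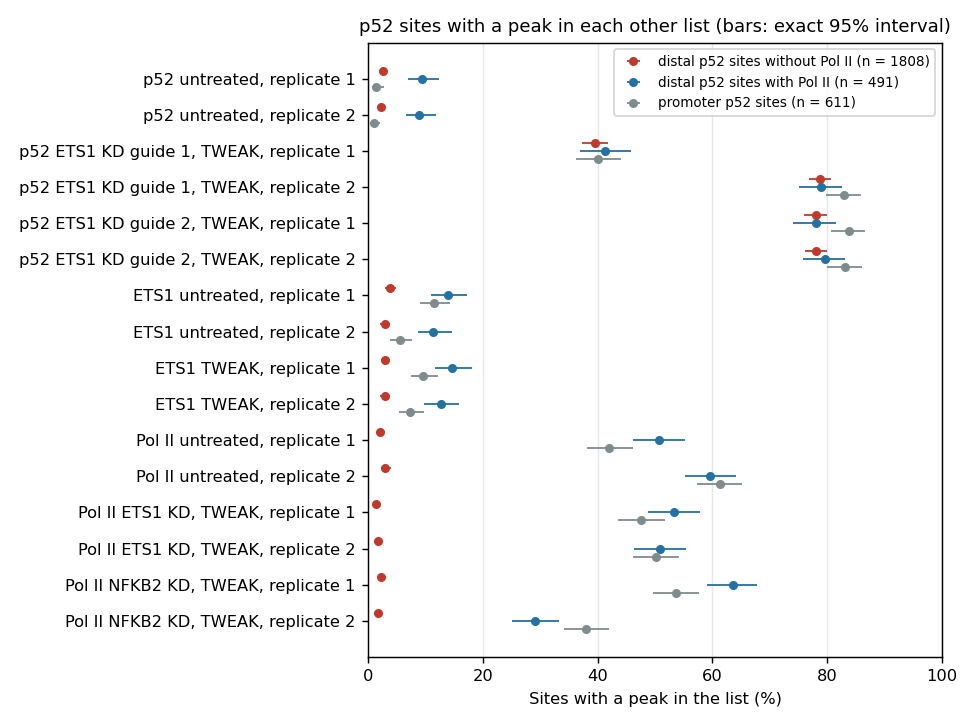
Share of sites with a peak (horizontal axis, percent, bars are exact 95% intervals) in each list not used to choose the members, for the 1808 members, 491 distal sites with Pol II and 611 promoter sites. The members have 2.54% or less in the untreated p52 lists, 3.87% or less in the ETS1 lists, 3.04% or less in the Pol II lists, and 39.5% to 78.8% in the ETS1 KD p52 lists.

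Most members also had a p52 peak in *ETS1* KD cells. The guide 1 lists had a p52 peak at 715 members (39.5%, 37.3 to 41.8) and 1424 (78.8%, 76.8 to 80.6), and the guide 2 lists at 1411 (78.0%) and 1413 (78.2%). Guide 1 replicate 1, the lowest, was also the shortest list, with 1387 peaks. Distal sites with Pol II had 41.3%, 79.0%, 78.0% and 79.6%. The mean difference of the members was −0.876 percentage points (−1.80 to 0.04), with p = 0.25 in a two-sided exact sign-flip test over the 4 lists, a design that cannot go below 0.05. The lists of the main comparison went both ways. The members were lower in all 4 lists with p52 peaks of −log10 q of at least 5 (mean difference −3.91 points), with a peak in either TWEAK replicate (−6.90), with no Pol II within 1 kb (−1.56) and, added after the data were seen, with p52 lists of 1387 peaks (−2.86). The tests of these could not pass 0.05 either. A peak was found in all 4 lists at 695 members (38.4%), in 3 at 544, in 2 at 190, in 1 at 171 and in none at 208 (11.5%).

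These shares need the level that a repeat of the same condition gives. When distal sites without Pol II were taken from TWEAK replicate 1 alone (2283 sites), 80.6% had a peak in TWEAK replicate 2, whose list is the longest, and 33.4%, 65.5%, 64.4% and 66.0% in the *ETS1* KD lists. When they were taken from replicate 2 alone (7884 sites), 23% had a peak in replicate 1, and 9.75%, 29.2%, 30.2% and 28.4% in the *ETS1* KD lists. Of the 4 *ETS1* KD lists, 3 thus held more sites of TWEAK replicate 2 than TWEAK replicate 1 did, and all 4 held fewer sites of TWEAK replicate 1 than TWEAK replicate 2 did.

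The share with a peak in *ETS1* KD fell with the strength of the site in control cells. In the strongest tier, 82.6%, 99.2%, 98.5% and 99.3% of the members had a peak in the 4 lists. In the middle tier the shares were 29.9%, 89.1%, 87.5% and 89.1%, and in the weakest 5.01%, 46.3%, 46.5% and 44.2%. Distal sites with Pol II had 11.8%, 57.8%, 50.8% and 52.9% in the weakest tier, each above the members. They had 26.2%, 83.7%, 90.1% and 92.2% in the middle tier, below the members in both guide 1 lists and above in both guide 2 lists, and 88.3%, 99.4%, 98.8% and 99.4% in the strongest. Members with κB had 41.5%, 80.9%, 80.2% and 79.9%, above those without (32.3%, 70.8%, 70.0% and 71.6%). Members with AP-1 had 44.6%, 83.3%, 81.9% and 82.3%, above those without (37.6%, 77.0%, 76.6% and 76.6%). Members with the ETS core had 36.3%, 77.2%, 77.5% and 77.5%, below those without (40.6%, 79.2%, 78.2% and 78.4%). Members with κB or AP-1 also had stronger p52 peaks in control cells, with median folds in TWEAK replicate 1 of 8.76 with κB and 9.19 with AP-1, against 7.03 and 8.00 without. Members with the ETS core had slightly weaker ones, with 8.04 against 8.40 without. Whether strength accounts for these differences was not tested.

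**Figure D4:**
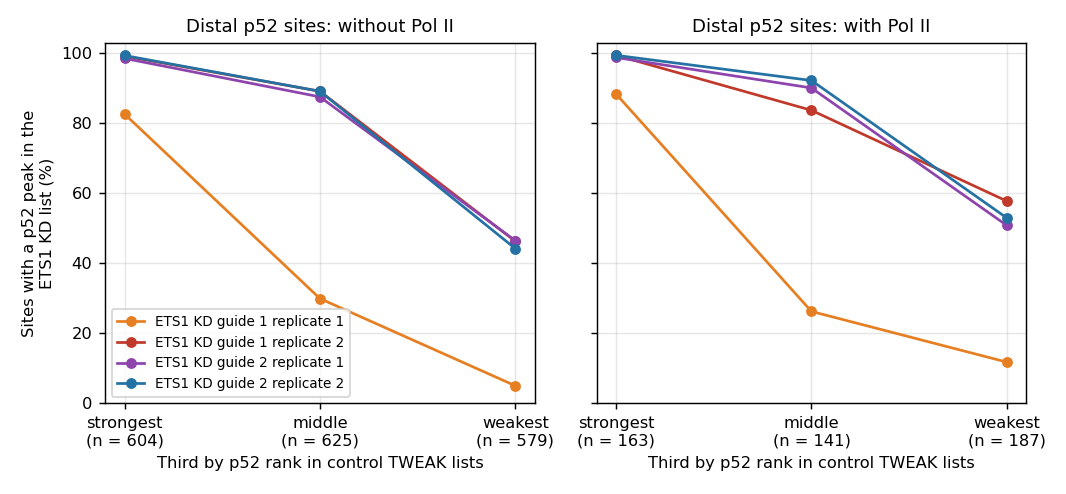
Share of distal p52 sites with a p52 peak in each ETS1 KD list (vertical axis, percent) for 3 tiers by rank in the control TWEAK lists (horizontal axis), for the members (left, 604, 625 and 579 sites) and for distal sites with Pol II (right, 163, 141 and 187 sites). In the strongest tier 3 of the 4 lists hold 98.5% or more of the members, and in the weakest the 4 lists hold 5.01% to 46.5%.

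RNA of the genes nearest to the members changed in both directions under TWEAK. The members were nearest to 1519 protein-coding genes, of which 1158 passed the filter on low counts and were tested with edgeR's quasi-likelihood test across all 16879 genes. TWEAK raised 38 (3.28%, 2.33 to 4.48) and lowered 31 (2.68%, 1.83 to 3.78) at an adjusted p under 0.05, where 1.55% of all genes tested were raised and 1.53% lowered. Here and below, all genes tested were not limited to protein-coding genes as the nearest genes were, so the shares come from unlike sets. The median log2 fold change was 0.04 for the nearest genes and 0.02 for all genes. Of the genes nearest to distal sites with Pol II, 29 of 375 (7.73%) were raised and 5 (1.33%) lowered, and of those nearest to promoter sites 35 of 533 (6.57%) and 10 (1.88%). Whether the balance of raised and lowered genes differs between these kinds of sites was not tested. In bulk RNA, fewer cells of a type and less RNA per cell cannot be told apart.

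The counts depended on single RNA libraries. Leaving out TWEAK replicate 1, 2 or 3 left 34, 24 and 15 raised and 19, 10 and 12 lowered genes, and leaving out untreated replicate 1 or 2 left 15 and 16 raised and 12 and 11 lowered genes. DESeq2 called 52 raised and 69 lowered, so the order of the 2 directions depended on the fit. The share of all genes that were called fell as well, and the nearest genes' share was above that of all genes in 11 of 11 alternative fits in each direction (raised 1.29% to 4.49% against 0.636% to 2.55%, lowered 0.859% to 5.96% against 0.353% to 3.02%). These fits reuse the same libraries and the same sites, so they are not independent of the main comparison.

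Genes shared with other p52 sites included many of the raised genes. Of the 1158 genes, 150 were also nearest to a promoter site or a distal site with Pol II, and 12 of these (8.00%) were raised and 3 (2.00%) lowered. Of the 1008 genes nearest to members and to no other p52 site, 26 (2.58%) were raised and 28 (2.78%) lowered. By distance of the nearest member, 14 raised and 8 lowered genes were among 382 within 10 kb, 12 and 13 among 417 at 10 to 50 kb, 3 and 4 among 164 at 50 to 100 kb, and 9 and 6 among 195 farther away. Of 163 genes nearest to 2 or more members, 10 were raised and 4 lowered. A κB match was present at a member of 35 of the 38 raised and 27 of the 31 lowered genes, against 953 of all 1158, and 20 and 16 had a member with p52 in all 4 *ETS1* KD lists, against 491 of 1158.

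Raised genes included components and outputs of TNF receptor signalling. *TRAF1*, an adaptor of TNF receptors, was at 10.2, 11.03 and 13.6 CPM untreated and 64.2, 83.1 and 144 with TWEAK. Every TWEAK library was far above every untreated one. *TRAF1* was also nearest to a promoter p52 site or a distal one with Pol II, so its change cannot be assigned to the member. The same position was held by 12 of the 38 raised and 3 of the 31 lowered genes, *TRAF1* included. For the other named genes, being nearest does not assign a change to a member either. The log2 fold change of *TRAF1* was 3.06 ± 0.31 (n = 3 libraries a group) with an edgeR adjusted p of 0.000249. Here and below, the value after ± is an approximate SE from the model of all groups. It is the size of the log2 fold change divided by the square root of edgeR's F statistic. *TNFRSF9*, a costimulatory TNF receptor, was at 1.35, 1.60 and 1.41 CPM untreated and 5.81, 6.25 and 10.2 with TWEAK. Its groups were also apart, with a log2 fold change of 2.35 ± 0.26 (edgeR adjusted p = 0.000437). *CXCL8*, a chemokine that attracts neutrophils, had 6.15, 6.52 and 4.78 CPM untreated and 16.3, 14.4 and 25.2 with TWEAK, and rose by 1.68 ± 0.23 on the log2 scale (edgeR adjusted p = 0.00174). *CXCL8* had 2 members, both upstream of it and both with κB. *NFKBIA*, the inhibitor IκBα, had 23.8, 26.0 and 25.8 CPM untreated and 56.5, 59.8 and 73.4 with TWEAK (log2 fold change 1.33 ± 0.15, edgeR adjusted p = 0.00051), and its member, 26703 bp downstream of its start, had no κB match.

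Other raised genes near the members act outside the NF-κB pathway. *PLA2G4C*, a cytosolic phospholipase, had 4.24, 3.50 and 3.44 CPM untreated and 9.40, 12.2 and 12.1 with TWEAK (log2 fold change 1.59 ± 0.21, edgeR adjusted p = 0.00109). *NRG1*, a ligand of ErbB receptors with 3 members, had 36.6, 40.7 and 45.4 CPM untreated and 92.4, 104 and 148 with TWEAK (1.49 ± 0.25, edgeR adjusted p = 0.00669). *ABI3BP*, a protein of the extracellular matrix, and *CDK6*, a kinase of the cell cycle, rose by 1.53 ± 0.32 and 1.52 ± 0.30 on the log2 scale (edgeR adjusted p = 0.0213 and 0.0158). Both had groups that did not overlap, with 5.94 to 7.78 against 11.3 to 28.1 CPM for *ABI3BP* and 12.6 to 17.0 against 34.9 to 57.4 for *CDK6*.

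The 2 largest log2 fold changes belonged to genes with few counts. *HCAR3*, a receptor of hydroxy fatty acids 3780 bp from its member, had 0, 0 and 1 counts untreated and 16, 11 and 13 with TWEAK, a ratio of 35.9 (exact 95% counting interval 6.08 to 1452). *SLIT2*, a secreted guidance ligand, had 0, 4 and 1 counts and 16, 20 and 25, a ratio of 10.9 (4.44 to 34.9), and its nearest member was 407315 bp away. The edgeR log2 fold changes, 4.78 ± 0.94 (adjusted p = 0.0157) and 3.37 ± 0.81 (adjusted p = 0.0432), depend on a prior count. Leaving out a library ended the call for some of the raised genes. *HCAR3* and *CDK6* were not called without TWEAK replicate 3 or untreated replicate 1 or 2 (adjusted p up to 0.0864 and 0.0746), *ABI3BP* without TWEAK replicate 2 or 3 or any untreated replicate (up to 0.109), and *SLIT2* without any 1 of the 6 libraries or with the replicate number as a block (up to 0.143). *TRAF1*, *TNFRSF9*, *CXCL8*, *PLA2G4C*, *NRG1* and *NFKBIA* were called in all 11 alternative fits.

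The other 28 raised genes had log2 fold changes of 0.41 to 1.29. They included *NFKBIZ*, *TRAF2*, *PLAUR*, *ETS1* and *ETS2*, described with the gene lists.

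The lowered genes include receptors and matrix genes. *F2RL1*, whose intron holds one of the 10 strongest members, had 25.1, 26.0 and 24.8 CPM untreated and 10.4, 9.71 and 8.36 with TWEAK, so that the groups were far apart. It fell by 1.41 ± 0.18 on the log2 scale (edgeR adjusted p = 0.00109). *TNIK*, a kinase of the Wnt pathway, had 14.4, 14.4 and 14.3 CPM untreated and 6.39, 5.85 and 5.996 with TWEAK, and fell by 1.24 ± 0.14 (edgeR adjusted p = 0.000437). *COL15A1*, a collagen of basement membranes, had 3.54, 4.09 and 4.88 CPM untreated and 1.79, 1.89 and 1.33 with TWEAK, and fell by 1.32 ± 0.21 (edgeR adjusted p = 0.00514). *SGCD*, a sarcoglycan, had 5.14, 5.50 and 4.88 and then 1.40, 2.59 and 2.05 CPM, and fell by 1.35 ± 0.20 (edgeR adjusted p = 0.00342). These 4 were called in all 11 alternative fits.

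*PDGFRA*, a receptor tyrosine kinase of glial progenitors, had 2.05, 1.38 and 2.09 CPM untreated and 0.825, 0.697 and 0.500 with TWEAK, and fell by 1.46 ± 0.36 on the log2 scale (edgeR adjusted p = 0.0477). *RANBP3L* fell by 2.46 ± 0.46, *ADAMTS14*, a procollagen protease, by 1.92 ± 0.46, *MYO3B*, an unconventional myosin, by 1.49 ± 0.30, *CDH18*, a cadherin, by 1.35 ± 0.26, and *SLC35F4* by 1.20 ± 0.29, with edgeR adjusted p of 0.013, 0.0439, 0.0175, 0.0147 and 0.044. Leaving out any 1 of the 6 control libraries ended the call for *PDGFRA* (adjusted p up to 0.218) and *ADAMTS14* (up to 0.165), as did the replicate number as a block. For *SLC35F4* this held of TWEAK replicate 2 or 3, of each untreated replicate and of a fit of the 2 groups alone (up to 0.19), for *RANBP3L* and *CDH18* of TWEAK replicate 2 or 3 and untreated replicate 1 or 2 (up to 0.074 and 0.0708), and for *MYO3B* of TWEAK replicate 2 or 3 and untreated replicate 2 (up to 0.0969). The other 21 lowered genes fell by 0.42 to 1.15.

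**Figure D5:**
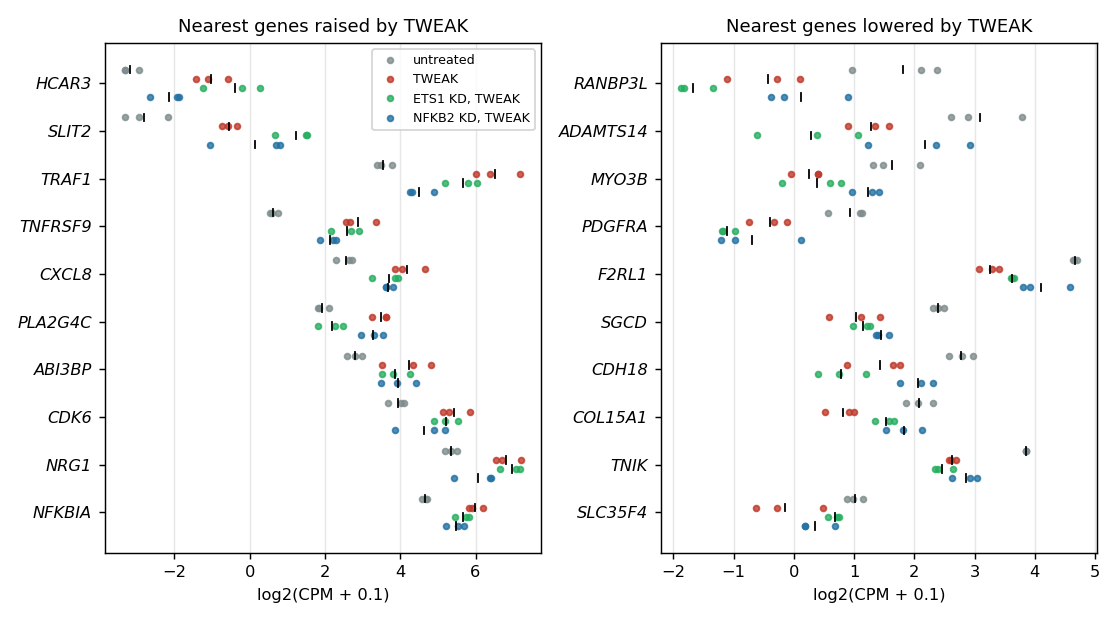
RNA of the 10 raised (left) and 10 lowered (right) genes nearest to members with the largest log2 fold changes, as log2(CPM + 0.1) on the horizontal axis, 1 point per library and a bar at each group's mean, for the 4 groups of 3 libraries. TRAF1 goes from 10.2 to 13.6 CPM untreated to 64.2 to 144 CPM with TWEAK, and F2RL1 from 24.8 to 26.0 CPM to 8.36 to 10.4 CPM.

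Genes of the lists for this pathway were near members only in part. Of 13 genes of NF-κB subunits and inhibitors, TWEAK raised 8 and lowered none (median log2 fold change 0.60, against 0.02 for all genes), and 3 were nearest to a member. These were *NFKBIA*, *NFKBIZ* (a nuclear IκB protein with 2 members, log2 fold change 0.92 ± 0.22, edgeR adjusted p = 0.0406) and *TNFAIP3* (an inhibitor of the pathway, 0.53 ± 0.22, adjusted p = 0.284). Of 11 genes of the TWEAK receptor and the non-canonical pathway, 6 were raised and none lowered (median 0.91), and both that were nearest to a member were raised, *TRAF1* and *TRAF2*. The call of *NFKBIZ* was lost without TWEAK replicate 2 or 3 or any untreated replicate (adjusted p up to 0.19). *TRAF2*, which restrains the non-canonical pathway in unstimulated cells, had 16.5, 16.7 and 16.4 CPM untreated and 30.1, 30.9 and 32.4 with TWEAK (0.91 ± 0.09, edgeR adjusted p = 0.000249), and its member lies 504 bp from its start. Of 15 cytokines and chemokines tested, 9 were raised and none lowered (median 1.68), and of the 3 near a member *CXCL8* was raised, while *CSF1* (log2 fold change 0.01) and *CCL2* (−0.20) did not pass the test.

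Of 14 proteases and adhesion genes of invasion tested, 5 were raised and none lowered, and 3 were nearest to a member. *PLAUR*, the urokinase receptor, rose by 0.69 ± 0.11 on the log2 scale (edgeR adjusted p = 0.00474), while *ICAM1* (0.54 ± 0.22, adjusted p = 0.276) and *MMP14* (−0.48 ± 0.19, adjusted p = 0.232) did not pass. ETS factors were the list with most genes near members, with 6 of 13 tested genes and 7 members. *ETS1* had 42.1, 41.3 and 45.1 CPM untreated and 71.9, 73.1 and 87.6 with TWEAK (0.86 ± 0.15, edgeR adjusted p = 0.0076), and its 2 members both had p52 in all 4 *ETS1* KD lists. *ETS2* rose by 0.82 ± 0.14 (edgeR adjusted p = 0.00698). *ERG*, *ETV1*, *ETV4* and *EHF* had log2 fold changes of 0.67, −0.32, 0.57 and 0.17 and did not pass, and the *ERG* and *EHF* RNA was under 1 CPM in every library. Of 13 TEAD and YAP targets 1 was raised, and the 1 near a member, *WWTR1*, had −0.32 (edgeR adjusted p = 0.204). Of 11 AP-1 factors 2 were raised, and none was nearest to a member.

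The comparisons of *ETS1* KD and *NFKB2* KD share their TWEAK control libraries with the comparison of TWEAK, so values are set side by side. In *ETS1* KD, 5 of the 1158 genes were raised (0.432%, where 0.255% of all genes were) and 19 lowered (1.64%, where 1.13% of all genes were). In *NFKB2* KD, edgeR called 0 raised (35 at an unadjusted p under 0.05, where 345 of all 16879 genes were, and DESeq2 called 2), where 0.00592% of all genes were raised, and a count of 0 allows a share of up to 0.259% by the limit of 3 counts. *TRAF1* was the 1 gene lowered (0.0864%, where 0.0237% of all genes were). This gene was also nearest to a promoter site or a distal site with Pol II. Of the 1008 genes nearest to members and to no other p52 site, 0 were lowered. *TRAF1* had 19.8, 19.1 and 29.9 CPM in *NFKB2* KD, all below the TWEAK control libraries, with a log2 fold change of −2.08 ± 0.30 (edgeR adjusted p = 0.0392). In *ETS1* KD it had 36.7, 55.7 and 65.3 CPM, which overlap them by 1 library, with −0.89 ± 0.29 (adjusted p = 0.201).

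The 38 genes raised by TWEAK had a median log2 fold change of −0.32 in *NFKB2* KD and −0.02 in *ETS1* KD, and the 31 lowered genes 0.26 and −0.02, and sharing the control libraries by itself moves these values against the TWEAK change. Of the raised genes, 4 passed the test in *ETS1* KD. *NFKBIZ* had 13.0, 11.7 and 15.1 CPM against 28.3, 33.0 and 45.5 in TWEAK control cells (log2 fold change −1.42 ± 0.22, edgeR adjusted p = 0.0054). *PLA2G4C* had 5.43, 3.40 and 4.69 CPM (−1.32 ± 0.20, edgeR adjusted p = 0.00528) and *ETS1* itself 28.2, 33.0 and 37.8 (−1.23 ± 0.15, edgeR adjusted p = 0.00112), all below the control libraries. The fourth, *SERPIND1*, an inhibitor of thrombin, was raised in *ETS1* KD, with 20.8, 26.6 and 26.7 CPM against 8.90, 6.82 and 10.2 (1.52 ± 0.24, edgeR adjusted p = 0.00627). These 4 calls in *ETS1* KD held in all 11 alternative fits, while the call of *SERPIND1* with TWEAK was lost without TWEAK replicate 3 or any untreated replicate (adjusted p up to 0.0864). No gene lowered by TWEAK passed the test in either KD.

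The other genes called in *ETS1* KD did not pass the test of TWEAK, and they were named after their values were seen. The raised ones besides *SERPIND1* were *GPAT3*, *ENC1*, *TNFSF9* and *CRIM1*, with log2 fold changes of 0.45, 0.53, 0.62 and 0.81, and each of these 4 calls was lost without TWEAK replicate 1, *ETS1* KD replicate 1 or *ETS1* KD replicate 3, among others (adjusted p up to 0.182, 0.215, 0.152 and 0.185). Among the lowered ones, *MEF2C*, a transcription factor, had 2.02, 1.69 and 1.97 CPM against 7.35, 7.44 and 6.36 (−1.89 ± 0.25, edgeR adjusted p = 0.00227). *ADAMTS5*, a protease of proteoglycans with 3 members that all had κB, had 46.0, 58.1 and 48.9 CPM against 147, 160 and 200 (−1.73 ± 0.31, edgeR adjusted p = 0.0129). None of the members at *MEF2C* and *ADAMTS5* had an ETS1 peak, which also held for 1727 of all 1808 members (95.5%). *MEF2C* was called in all 11 alternative fits, and *ADAMTS5* was not called without TWEAK replicate 3 or *ETS1* KD replicate 1 or 3 (adjusted p up to 0.0839). Leaving out any 1 of the 6 libraries left 1 or 2 raised genes in *ETS1* KD, and among the lowered 9, 11 and 11 genes were called without *ETS1* KD replicate 3, *ETS1* KD replicate 1 and TWEAK replicate 3. The call of *TRAF1* in *NFKB2* KD was lost without TWEAK replicate 2 or 3 or any *NFKB2* KD replicate, and in a fit of the 2 groups alone (adjusted p up to 0.261).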

How the data were processed

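ChIP-seq of p52, ETS1 and Pol II and RNA-seq were measured in U-87 MG cells. Per the authors' methods, ChIP reads were aligned to hg38, peaks were called with MACS2 against input, and blacklisted regions were removed with bedtools. One list per library was deposited, with the fold enrichment (a ratio to background), −log10 p and −log10 q of each peak. The 3 input libraries were not analysed here. RNA reads were trimmed with Trimmomatic and aligned with STAR, and the authors deposited featureCounts counts per gene. Versions of these tools are not given in the sources used here.

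The members and gene lists were chosen with earlier results of these data known. Peaks were merged and annotated with Python 3.11.15 (pandas 2.3.3, pysam 0.24.0) and GENCODE v44, and overlap by at least 1 bp counted. Intervals of shares are exact Clopper-Pearson, and the upper limit of a count of 0 is 3 counts of the total. Consensus sequences were searched on both strands within 200 bp. Counts were tested with edgeR 4.0.16 (quasi-likelihood, TMM, 4 groups in 1 model, 16879 genes passing filterByExpr, Benjamini-Hochberg adjusted p under 0.05), after a test on simulated data, with DESeq2 1.42.0 as an alternative. CPM values use TMM library sizes. The gene nearest to a member is the one with the nearest protein-coding transcript start. The genes named are the 10 raised and 10 lowered nearest genes with the largest log2 fold changes among those called with groups that did not overlap, the 5 with most members, and the list genes nearest to a member. Deviations of RNA libraries with the same replicate number had correlations of −0.304 to 0.492. These do not settle whether the numbers pair the libraries, and the main model had no pairing. Sequences are from the hg38 reference, and those at named genes were cut to 100 bp. The *ERG* site was chosen for printing after its values were seen. Some items are not reported here.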

Additional observations from a re-analysis of the deposited data

How the results depend on the processing

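Peak depth is unknown, so list length limits every share, and the RNA tests have 3 libraries a group. The mean differences from distal sites with Pol II kept their sign under the alternatives run. Whether more nearest genes were raised or lowered by TWEAK did change with the fit. Of the alternative values, 101 kept the sign of a mean difference or, for shares and counts, stayed near the reported value. The other 73 moved as follows, with a cause that was not tested. The mean difference from distal sites with Pol II still varied in size, from −6.90 to −0.568 points for p52 in *ETS1* KD and from −11.45 to −5.86 points for ETS1. With peaks of −log10 q of at least 5, an untreated p52 peak was found at 1.67% of the members, p52 in at least 3 *ETS1* KD lists at 73.9% (68.5% as reported) and ETS1 in any list at 3.10%. With a peak in either TWEAK replicate there were 8321 members, and the shares were 19.2% for at least 3 KD lists, 6.03% for Pol II in another condition, 25.3% for AP-1 and 69.2% for κB. With lists shortened to the shortest of each antibody there were 225 members, with 0.444% for untreated p52, 85.3% for KD, 1.33% for ETS1, 4% for Pol II and 89.8% for κB. Leaving out members with Pol II within 1 kb gave 5.71% for Pol II, and 400 bp windows gave 36.3% for AP-1. Both of the following, and leaving out single *ETS1* KD p52 or ETS1 lists, were added after the data were seen. Shortening the TWEAK and KD p52 lists to 1387 peaks gave 691 members and 83.5% for KD, and leaving out the members at the 5 genes of long stretches gave 1.26% for untreated p52 and 2.63% for ETS1.

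Calls among the nearest genes also moved. DESeq2 gave 52 genes raised and 69 lowered by TWEAK, 15 raised and 46 lowered in *ETS1* KD, and 2 and 2 in *NFKB2* KD. No filter on low counts gave 50 raised and 69 lowered by TWEAK, 13 and 41 in *ETS1* KD, and 6 and 4 in *NFKB2* KD. An unadjusted p of at most 0.05 with a fold of at least 1.5 gave 55 and 73, 17 and 65, and 19 and 13. The nearest start of any gene tested gave 2 lowered in *NFKB2* KD, members within 100 kb gave 3 raised in *ETS1* KD, and fitting 2 groups alone gave 0 lowered in *NFKB2* KD. With DESeq2, TWEAK raised 4.49% of the nearest genes and 2.55% of all genes, and lowered 5.96% and 3.02%. Without the filter it raised 3.54% and 0.998%, and lowered 4.88% and 1.45%. For the other counts here, and the KD counts of the next paragraph, the share of all genes is not given. Those counts are no result about the members.

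The replicate number as a block gave 51 raised and 40 lowered by TWEAK, 7 and 27 in *ETS1* KD, and 0 and 1 in *NFKB2* KD, and the samples share only a number. It ended the calls of *SLIT2*, *ADAMTS14* and *PDGFRA* with TWEAK and of *DCDC2C* and *ENC1* in *ETS1* KD. Leaving out 1 library at a time gave 2283 to 7884 members, 0.951% to 6.97% with untreated p52, 19.9% to 56.4% with p52 in at least 3 KD lists, 2.49% to 11.8% with ETS1, 5.29% to 9.33% with Pol II, 22.6% to 26.5% with AP-1 and 64.4% to 72.6% with κB. The mean differences from distal sites with Pol II were −6.86 to −0.568 points for KD and −11.2 to −7.13 points for ETS1. In the same way TWEAK raised 15 to 34 and lowered 10 to 25 genes, *ETS1* KD raised 1 to 2 and lowered 9 to 16, and *NFKB2* KD raised 0 and lowered 0 to 1.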
